A study of Mus musculus with 84 samples.

Results

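Endothelial cells are held to each other by proteins that span the gap between neighbouring cells and by scaffold proteins that tie them to the cytoskeleton. A set of 10 genes for such proteins was followed here, chosen by name: Pecam1, Cdh5, Cdh2, Cldn5, Ocln, Tjp1, Esam, F11r, Jam2 and Jam3. All 10 have a row in the table of 20308 genes. They were measured in 84 single cells sorted as CD31+CD144+CD41-CD45- from the mouse AGM at E11.5, where E counts embryonic days. The AGM (aorta-gonad-mesonephros) is the trunk region around the dorsal aorta, the genital ridge and the embryonic kidney. Each cell was captured by microfluidics, on a chip made for diameters from 10 to 17 µm, and its full-length cDNA was read as single-end reads of 67 bp. The sources used here do not give the strain, any genotype or the number of embryos, and no cell is tied to an embryo. The 84 cells therefore form 1 group that counts as 1 sample, with no untreated or control group beside it, and all values describe these cells without a test. CD31 is the protein of Pecam1 and CD144 that of Cdh5, so these transcripts follow the gate that chose the cells and their frequency is no finding.

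Endothelial adherens junctions are built on VE-cadherin, which binds the same protein on the neighbouring cell and holds catenins on its inner side. N-cadherin does the same in mesenchymal and neural cells, and in endothelium it is known for contact with mural cells. Tight junctions seal the gap further with claudins, occludin and the JAM proteins, and scaffold proteins such as ZO-1 gather them beneath the membrane. PECAM-1, ESAM and the JAM proteins belong to the immunoglobulin superfamily and are also known for their part in the passage of leukocytes between endothelial cells.

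Expression is given as TPM, a unit scaled to a fixed total, which is corrected for transcript length and sums to between 999998 and 1000002 in each cell. TPM keeps no sequencing depth, so the depth behind a value is unknown and a 0 can be a transcript that was missed. A gene was called detected at TPM 1 or more. A median of 6978 genes were detected per cell (3334 to 10073). The libraries shared 0 index pairs and 0 pairs of cells held identical values. Intervals for shares of cells are exact Clopper-Pearson intervals at the 95% level and cover counting error over cells only.

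The sort label was checked against 13 pan-endothelial genes other than the members. Each was detected in 55 to 84 cells, and a median of 12 reached TPM 10 per cell. Of the genes for the proteins sorted against, Itga2b (CD41) was found in 7 cells and Ptprc (CD45) in 0. Cells that stand apart were also present: 34 of the 84 cells held at least 3 of 11 mesenchyme genes at TPM 10 or more, and are called mesenchyme-marker cells below. At least 3 markers of neural or sympathetic cells were found in 4 cells, of megakaryocytes or platelets in 3, of smooth muscle or mural cells in 2, of epithelial or mesonephric cells in 1, and of erythroid cells or macrophages in 0. In all, 39 cells held such a marker set and 45 held none.

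Reference promoter sequence was at hand for 4 of the 10 genes, in RefSeq windows on GRCm38.p6 that run from 250 bases before a transcript start to 50 bases after it. The windows of Cldn5, F11r and Tjp1 are shown because these are the windows of members found in most cells. Capitals mark GGAA, the core letters of ETS factor motifs, and CAGGTG, an E-box bound by Snail and Zeb repressors, each read on both strands, so that TTCC and CACCTG are marked too. The window of Cldn5 lies at chr16:18776597-18776896 on the plus strand, that of F11r at chr1:171437311-171437610 on the plus strand, and that of Tjp1 at chr7:65371195-65371494 on the minus strand, at a start inside the span of the gene.
Cldn5: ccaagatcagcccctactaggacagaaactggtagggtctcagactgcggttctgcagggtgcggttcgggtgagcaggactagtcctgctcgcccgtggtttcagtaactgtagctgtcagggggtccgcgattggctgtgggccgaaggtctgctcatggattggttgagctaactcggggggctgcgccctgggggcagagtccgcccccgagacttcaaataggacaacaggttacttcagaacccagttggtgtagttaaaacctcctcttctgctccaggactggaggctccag
F11r: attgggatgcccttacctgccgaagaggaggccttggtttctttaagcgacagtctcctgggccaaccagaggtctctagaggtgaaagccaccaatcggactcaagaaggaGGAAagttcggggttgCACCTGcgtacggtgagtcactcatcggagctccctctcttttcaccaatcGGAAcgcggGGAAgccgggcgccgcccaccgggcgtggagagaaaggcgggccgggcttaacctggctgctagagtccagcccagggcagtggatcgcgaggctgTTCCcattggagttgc
Tjp1: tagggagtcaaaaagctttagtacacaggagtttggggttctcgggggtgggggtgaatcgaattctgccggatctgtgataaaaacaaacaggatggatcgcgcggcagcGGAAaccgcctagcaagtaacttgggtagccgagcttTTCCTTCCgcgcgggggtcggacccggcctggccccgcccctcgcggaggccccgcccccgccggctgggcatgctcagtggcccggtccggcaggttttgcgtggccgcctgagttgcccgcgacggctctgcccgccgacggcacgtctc
The Cldn5 window holds 0 copies of GGAA, the F11r window 4 and the Tjp1 window 3. Of all 32817 windows in the RefSeq table, 96.0% hold GGAA, so the letters alone set no promoter apart. CAGGTG occurs in 20.2% of all windows, once in that of F11r and 0 times in those of Cldn5 and Tjp1. The longer ETS motif CCGGAA, found in 14.9% of all windows, occurs 0 times in these 3. No marked motif overlaps another. CpG dinucleotides number 12 in the window of Cldn5, 19 in that of F11r and 31 in that of Tjp1, beside a median of 7 over all windows (quartiles 3 and 20). Of the 2 windows of Ocln, both hold GGAA and CAGGTG, and 1 holds CCGGAA. These matches describe letters in a window and say nothing of whether a factor binds there.

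Most cells held a junction repertoire of Pecam1, Cdh5, Esam, F11r, Tjp1 and Cldn5 transcripts, with Jam3 and Cdh2 in a majority, Jam2 in a minority and Ocln in 1 cell. The cells held a median of 7 of the 10 genes (quartiles 6 and 8, from 2 to 9), and 28 cells held exactly 7. Their summed level had a median of 918 TPM, from 20.2 to 2335 TPM. All 6 widely detected genes were found together in 57 cells, or 67.9% (56.8% to 77.6%); this set of 6 was chosen after the values were seen. Cells with more detected genes held somewhat more of the 10, with a Spearman rho of 0.35 over the 84 cells.

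**Figure D1:**
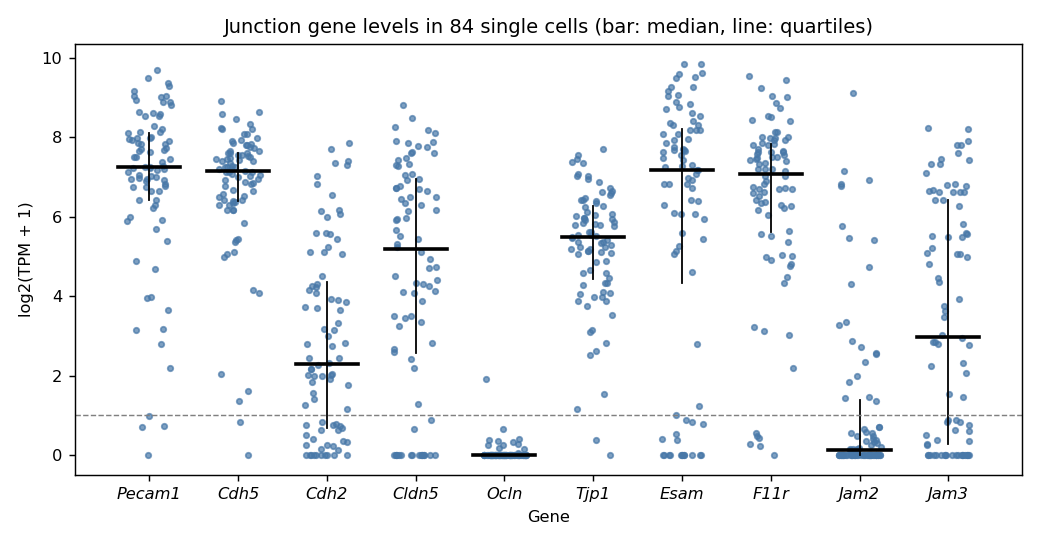
Levels of the 10 junction genes in each of 84 cells, as log2(TPM + 1), ordered by role; points are cells, thick bars medians and thin lines quartiles, and the dashed line marks TPM 1. Pecam1, Cdh5, Esam and F11r share medians of 134 to 152 TPM, while Ocln passes the dashed line in 1 cell.

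The adherens junction genes come first. Cdh5, which encodes VE-cadherin (gene ID 12562, chromosome 8, 104101613 to 104144504), was found in 82 cells and lay between 0 and 483 TPM with a median of 140 TPM. Its quartiles of 82.7 and 195 TPM made it the least spread of the 4 abundant genes, and 56 cells held it at TPM 100 or more. Cdh2, which encodes N-cadherin (gene ID 12558, chromosome 18, 16588877 to 16809246), was detected in 57 cells, or 67.9% (56.8% to 77.6%). It lay between 0 and 228 TPM, and its median was 3.92 TPM. In 32 cells it was at TPM 10 or more and in 7 at TPM 100 or more. Cdh2 was thus present at a low level in most cells, with a tail of high cells.

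Cdh5 was the higher of these cadherins in most cells. Both were detected in 56 cells, with a median Cdh5 to Cdh2 ratio of 9.42. Cdh5 without Cdh2 was found in 26 cells, Cdh2 without Cdh5 in 1 and neither in 1. Cdh2 exceeded Cdh5 in 6 cells, or 7.14% (2.67% to 14.9%). In cell 12 Cdh2 stood at 112 TPM and Cdh5 at 39.8 TPM. In cell 23 the values were 65.5 TPM for Cdh2 and 0.79 TPM for Cdh5, and in cell 38 they were 42.4 and 16.9 TPM. In cells 19, 39 and 78 the margin was small, with 228 against 210 TPM, 3.03 against 2.08 TPM and 15.91 against 15.87 TPM.

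Every one of these 6 cells held markers of another cell type. Cells 19, 23, 38 and 78 were mesenchyme-marker cells, with 4, 4, 9 and 6 of the 11 genes at TPM 10, and cells 12 and 39 held the 3 neural genes Tubb3, Stmn2 and Elavl4 at that level. Among the 45 cells with no such marker set, Cdh2 exceeded Cdh5 in 0; counting 3 cells of the total as the limit, this allows a share of up to 6.67%. The part of other cell types in these values was not tested further.

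**Figure D2:**
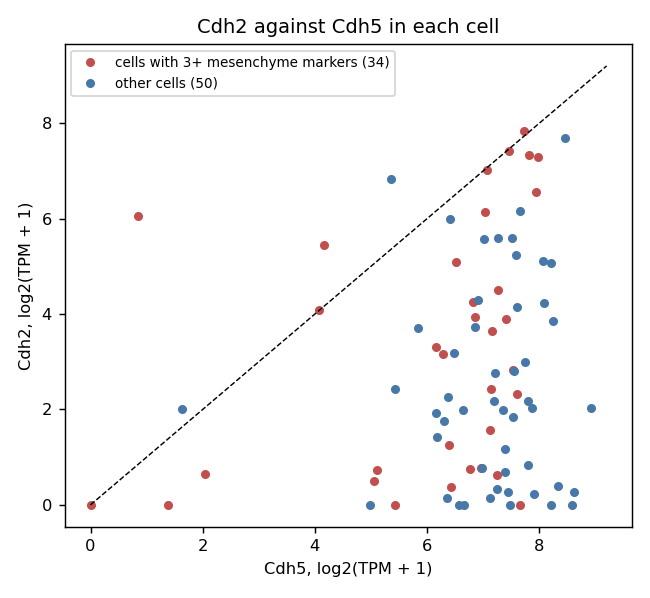
Cdh2 plotted against Cdh5 in each cell, both as log2(TPM + 1), with the 34 mesenchyme-marker cells and the 50 other cells in separate colours; the dashed line marks equal levels. The 6 cells above the line are 4 mesenchyme-marker cells and 2 other cells.

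Another cadherin was as widespread as Cdh5. Cdh11, known from mesenchyme, was detected in 82 cells with a median of 65.5 TPM, exceeded Cdh2 in 69 cells and exceeded Cdh5 in 23. Cdh1, the epithelial E-cadherin, was found in 3 cells; it was named after its values were seen. The catenins that bind cadherin tails were present in all 84 cells, with median levels of 716 TPM for Ctnnb1 (beta-catenin), 240 TPM for Ctnna1 (alpha-catenin) and 62.6 TPM for Ctnnd1 (p120-catenin). Ctnnb1, which also acts in Wnt signalling, exceeded Cdh5 in 82 cells. Of the list of 16 other adherens junction genes, 11 were detected in at least 42 cells.

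Among the tight junction genes Cldn5, Tjp1 and Ocln, Tjp1 was found in the most cells and Ocln in the fewest. Cldn5, the main claudin of endothelium (gene ID 12741, chromosome 16, 18776847 to 18778262), was detected in 66 cells, or 78.6% (68.3% to 86.8%). It lay between 0 and 445 TPM with a median of 35.2 TPM and quartiles of 4.90 and 121 TPM. This was a wide spread: 18 cells fell below TPM 1 and 26 held TPM 100 or more. The scaffold gene Tjp1, which encodes ZO-1 (gene ID 21872, chromosome 7, 65296165 to 65527850), was detected in 82 cells and lay between 0 and 205 TPM with a median of 43.6 TPM and quartiles of 20.6 and 75.3 TPM. Tjp1 was near-universal but moderate, with TPM 100 or more in 11 cells.

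Ocln, which encodes occludin (gene ID 18260, chromosome 13, 100496504 to 100552718), reached TPM 1 in 1 cell, or 1.19% (0.0301% to 6.46%). It was above 0 in 13 cells, and its highest value was 2.78 TPM in cell 79. That cell also held Epcam at 264 TPM, Cdh1 at 57.6 TPM, Lhx1 at 26.9 TPM, Jam2 at 120 TPM and Cldn7 at 1.73 TPM, genes singled out after their values were seen. Epcam and Cdh1 are known from epithelia and Lhx1 from the embryonic kidney. The keratin genes Krt8 and Krt18 stood at 0 in the same cell. They were detected in 0 and 4 of all 84 cells, so these zeros say little. Endothelial junction genes were present in it too, with Pecam1 at 119 TPM, Cldn5 at 79.9 TPM and Cdh5 at 56.3 TPM.

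Cldn5 had few companions among the claudins. Of 24 other claudin rows, the 1 labelled Cldn25 had a median of 132 TPM and was detected in 78 cells. That symbol is an older name of both Cldn25-ps and Cldnd1 in the RefSeq table and the data table has no Cldnd1 row, so the identity of the row is uncertain and it is set aside. Of the remaining 23, 11 were detected in 0 cells and 10 in 1 to 3 cells. Cldn12 was found in 24 cells (highest 123 TPM) and Cldn11 in 20 cells (highest 250 TPM). Cldn5 exceeded the sum of these 23 claudins in 54 cells, and the sum exceeded Cldn5 in 27.

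The plaque and tricellular list held 18 genes, of which 6 were detected in at least 42 cells. The polarity gene Pard3 was found in 74 cells, the scaffold gene Mpdz in 69, and Cgnl1 (paracingulin) and Magi1 in 64 each, with median levels from 6.65 to 17.5 TPM. Tjp3 (ZO-3) and the tricellular gene Ildr1 were each detected in 0 cells. The exact upper limit for 0 of 84 is 4.30% of cells, which bounds detection and not expression.

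The immunoglobulin family members ranged from abundant to rare. Pecam1 (gene ID 18613, chromosome 11, 106654213 to 106715281) was detected in 80 cells and lay between 0 and 820 TPM with a median of 152 TPM and quartiles of 84.7 and 275 TPM. Esam, an endothelial adhesion molecule (gene ID 69524, chromosome 9, 37528089 to 37538319), was detected in 66 cells, or 78.6% (68.3% to 86.8%), and lay between 0 and 921 TPM with a median of 143 TPM. Esam was high or missing: 50 cells held TPM 100 or more, and 18 fell below TPM 1. F11r, which encodes JAM-A (gene ID 16456, chromosome 1, 171437561 to 171464593), was detected in 78 cells, or 92.9% (85.1% to 97.3%), and lay between 0 and 742 TPM with a median of 134 TPM.

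Jam3, which encodes JAM-C (gene ID 83964, chromosome 9, 27097384 to 27155421), was detected in 52 cells, or 61.9% (50.7% to 72.3%), and lay between 0 and 299 TPM with a median of 6.88 TPM. In the cells that held it the median was 45.8 TPM, and 15 cells reached TPM 100. Its exons overlap an antisense gene, Gm48796, which has no row of its own, and the sources used here do not say whether the counting used strand, so reads of the pair cannot be told apart. Jam2, which encodes JAM-B (gene ID 67374, chromosome 16, 84774123 to 84826380), was detected in 22 cells, or 26.2% (17.2% to 36.9%), with a median of 0.09 TPM over all cells and 8.97 TPM in those that held it. Its highest level of 548 TPM, in cell 27, was followed by 140 TPM in cell 23 and 120 TPM in cell 79. Jam2 was thus a transcript of few cells, above 0 in 43 and at TPM 10 in 10.

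JAM-A was the leading JAM transcript in most cells. F11r was the highest of the 3 JAM genes in 61 cells, Jam3 in 18 and Jam2 in 5. Counted at TPM 1, 43 cells held 2 of the genes, 27 held 1, 13 held all 3 and 1 held 0. Jam2 and Jam3, whose proteins are known to bind each other, were detected together in 14 cells, beside 13.6 given by independent detection of the pair. Of the 10 cells with Jam2 at TPM 10, 8 also held F11r at that level, beside 74 of all 84 cells.

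The level order over the 84 cells was Pecam1, Esam, Cdh5, F11r, Tjp1, Cldn5, Jam3, Cdh2, Jam2 and Ocln. The quartile ranges of all 9 neighbouring pairs overlapped. Within cells, Pecam1 exceeded Esam in 47 and the reverse held in 36, Esam exceeded Cdh5 in 45 and the reverse held in 38, and Cdh5 exceeded F11r in 44 and the reverse held in 40, so the first 4 had no firm order. F11r exceeded Tjp1 in 65 cells and Tjp1 exceeded F11r in 19. Cdh2 exceeded Jam2 in 63 cells and Jam2 exceeded Cdh2 in 14.

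Other genes of the cell border were led by Icam2, an intercellular adhesion molecule of endothelium, detected in 68 cells with a median of 151 TPM. Mcam (CD146) was detected in 66 cells, Cd99l2 in 46 and Icam1, which binds leukocyte integrins, in 39. Icam2 thus stood level with Pecam1 in median. Of the 8 genes on this list, Cd99 had no row in the table.

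The 4 cells with the fewest junction transcripts held mesenchyme markers. Cells 13, 23, 65 and 72 held 4, 3, 3 and 2 of the 10 genes, and each had at least 4 mesenchyme markers at TPM 10. Of the 8 cells with 5 members, cell 73 had 0 such markers and cell 39 had 2, and the median was 7 members both in mesenchyme-marker cells and in other cells. Cell 72 held F11r at 175 TPM and Jam3 at 112 TPM, with the other 8 at 0, and had the fewest detected genes of all cells, 3334. Cell 65 held Tjp1 at 61.7 TPM, Jam3 at 44.98 TPM and Cdh5 at 1.59 TPM. Cell 23 held Jam2, Jam3 and Cdh2. Pecam1 was below TPM 1 in all 4 cells, although the gate selected for its protein. Other endothelial transcripts were few in them too. Of the 13 pan-endothelial genes, 1, 1, 0 and 7 reached TPM 10 in cells 13, 23, 65 and 72, beside a median of 12 per cell.

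**Figure D3:**
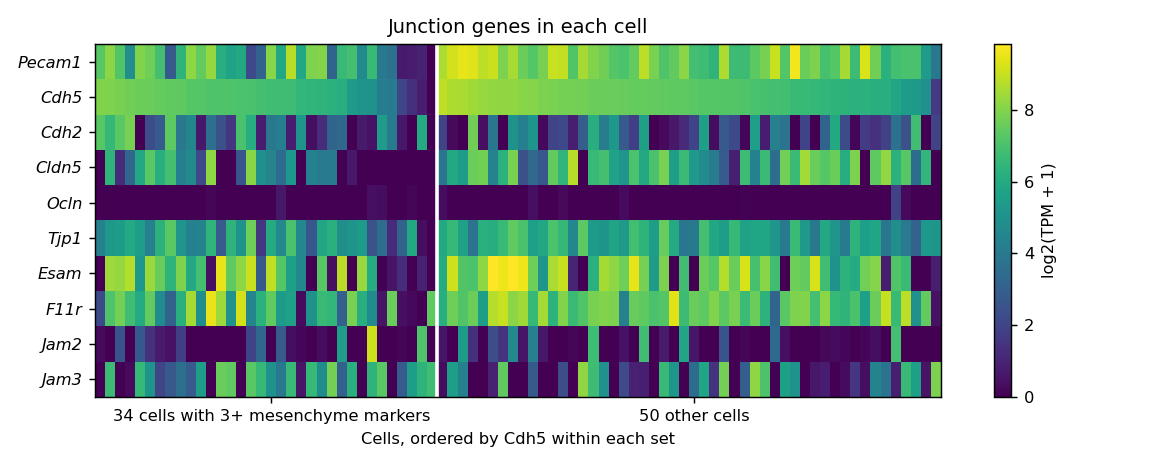
Levels of the 10 junction genes, one row each and one column per cell, as log2(TPM + 1) in colour, with the 34 mesenchyme-marker cells left of the 50 other cells and each set ordered by Cdh5. The dark columns at the right end of the mesenchyme-marker set include cells 13, 23, 65 and 72.

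The 6 widely detected genes varied together over cells, weakly to moderately. Correlations below are Spearman rho over the 84 cells, which share the sort and the chip type and differ in depth to an unknown extent, and are descriptions. Over all 45 pairs of the 10 genes the median rho was 0.07 (-0.24 to 0.55), and 6 pairs reached 0.3. Among all pairs of 9683 genes detected in at least 20 cells, 1.04% reached 0.3 and the median was 0.03. For members detected in at least 20 cells, which leaves out Ocln, the median was 0.14. All 15 pairs within the set of 6 were positive, with a median of 0.29 (0.19 to 0.55). Within the 7 sets of 12 cells that share a second library index, the median of these 15 pairs ranged from 0.10 to 0.57.

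Pecam1 and Cdh5, whose proteins were both in the gate, had the highest rho, 0.55, with 0.54 in the 50 cells outside the mesenchyme-marker set. Pearson's r of log2(TPM + 1) was 0.75 for this pair, and 0.66 without the 2 cells farthest from the median of Pecam1. Cdh5 had a rho of 0.44 with Tjp1 and of 0.43 with Esam, and Esam and Tjp1 had 0.41. These values were 0.44, 0.39 and 0.48 in the 50 other cells, so they were not lost when the mesenchyme-marker cells were left out.

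The pairs of Cldn5 had lower values without the mesenchyme-marker cells, as did the pair of Pecam1 and F11r. The reason was not tested. Cldn5 had a rho of 0.34 with Pecam1, 0.34 with F11r, 0.27 with Cdh5 and 0.25 with Tjp1 over all cells. In the 50 other cells the values were -0.07, 0.12, -0.09 and -0.13. Pecam1 with F11r had 0.29 over all cells and -0.03 in the 50 other cells, while Pecam1 with Esam had 0.29 and 0.38. Without the mesenchyme-marker cells the median of the 15 pairs was 0.18 (-0.13 to 0.54). Over all 84 cells, the median of the 15 pairs was 0.29 with the number of detected genes regressed out, as it was without.

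Jam3 stood apart from the set. Its rho with each of the 6 genes was negative, from -0.24 with Cdh5 to -0.03 with Tjp1; in the 50 other cells the values ran from -0.20 to 0.09. Jam2 was positive in 6 of its 9 pairs, with a median of 0.12. Its highest rho was 0.22 with Cdh5, and 0.29 in the 50 other cells, which lies within the range of the set of 6. Its lowest was -0.22 with F11r, and -0.06 in the 50 other cells. With Pecam1 it had 0.12, and 0.29 in the 50 other cells. Cdh2 was negative in 6 of its 9 pairs, with a median of -0.03 and a lowest rho of -0.14 with Jam3. Its 3 positive pairs were 0.16 with Cdh5, 0.11 with Esam and 0.19 with Jam2. These are weak values in data with many zeros.

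**Figure D4:**
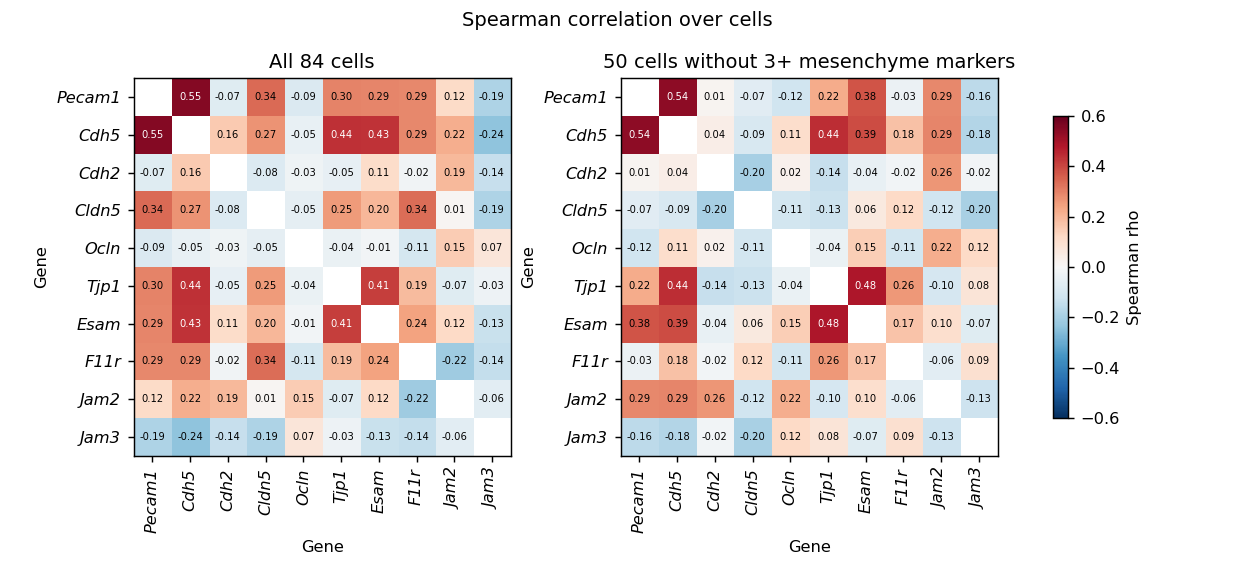
Spearman rho for each pair of the 10 junction genes, in all 84 cells on the left and in the 50 cells outside the mesenchyme-marker set on the right; red is positive and blue negative. Pecam1 with Cdh5 keeps 0.54 on the right, while Cldn5 with Pecam1 stands at 0.34 on the left and -0.07 on the right.

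Genes most like each member were taken as the 3 with the highest rho among genes detected in at least 20 cells, over 84 cells. For Pecam1 they were Cdh5 (0.55), Mmrn2 (0.53) and Pde2a (0.53). For Cdh5 they were Heg1 (0.60), Cd93 (0.59) and Ralb (0.58), and for Esam they were Cd93 (0.62), Sparc (0.58) and Flt1 (0.56). For Tjp1 they were Egfl7 (0.53), Tmem204 (0.49) and Ramp2 (0.47). Mmrn2, Cd93, Flt1 and Egfl7 are known from endothelium, Flt1 as a VEGF receptor.

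The remaining members had lower best values. For F11r the genes were Lyn (0.49), Pxn (0.48) and Mfge8 (0.47). For Cldn5 they were Slco3a1 (0.50), Stab1 (0.49) and Egfl7 (0.48), with 0.29, 0.15 and 0.14 in the 50 other cells. For Cdh2 they were Col5a2, a fibrillar collagen gene (0.45), Dicer1 (0.42) and Mmp16 (0.40), for Jam3 they were Nlgn2 (0.43), Rgmb (0.40) and Maml3 (0.40), and for Jam2 they were Dnase2a (0.47), Tbccd1 (0.44) and Zdhhc21 (0.43).

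Partner genes differed in how far they varied with the abundant members. Mcam had a rho of 0.55 with Esam and 0.48 with Cdh5. Icam2 had 0.42 with Esam and 0.42 with Pecam1. Ptprb, which encodes the phosphatase VE-PTP that binds VE-cadherin and was named after its values were seen, had 0.42 with Pecam1 and 0.41 with Cdh5. Cdh11 had -0.30 with Esam, and -0.40 in the 50 other cells. Ctnnb1 had 0.13 with Cdh5. Others were near 0: Cd99l2 had 0.004 with Pecam1 and -0.01 with Cdh5, and Mpdz had 0.02 with Cdh5 and -0.21 with Pecam1.

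Transcription factors known to act on endothelial junction genes were set beside the members, 11 in all. The ETS factor Fli1 was detected in 82 cells (median 159 TPM), Ets1 in 82 (186 TPM) and Erg in 71 (15.7 TPM). Of 110 pairs of a factor and a member, 13 had a rho of 0.3 or more over all cells. Of all pairs of genes detected in at least 20 cells, 1.04% did. Most of the 13 fell below 0.3 in the 50 other cells. Those that kept it were Fli1 with Pecam1, Cdh5 and Tjp1, and Ets1 with Cdh5 and Tjp1. Erg had its highest rho with Cldn5, 0.44, with 0.29 in the 50 other cells. Ets1 had 0.40 with Cdh5 and 0.40 with Tjp1, and 0.41 and 0.30 in the 50 other cells. With Cldn5 it had 0.33, and 0.15 in the 50 other cells. Fli1 had 0.37 with Cdh5 and 0.37 with Pecam1, and 0.45 and 0.48 in the 50 other cells.

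The SOX factors had lower values. Sox18, detected in 60 cells, had 0.36 with Cdh5 and 0.16 in the 50 other cells. Sox17, detected in 37 cells, had 0.31 with Tjp1 and 0.17 in the 50 other cells. Foxo1, described as a repressor of Cldn5, was detected in 71 cells and had 0.22 with Cldn5 over all cells and -0.04 in the 50 other cells. With Cdh2 it had 0.16 over all cells and 0.42 in the 50 other cells. Foxc2, found in 27 cells, had a rho of 0.24 or less with each member.

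Factors known to repress epithelial cadherin were also present. Snai2 was detected in 81 cells, Zeb1 in 79, Zeb2 in 45 and Snai1 in 40. Their rho with Cdh5 ranged from -0.003 for Snai1 to 0.16 for Zeb1. Snai2 had 0.30 with Cdh2, and 0.22 in the 50 other cells. Zeb2 had 0.26 with Cdh2, and 0.05 in the 50 other cells. Snai1 and Zeb1 had 0.26 and 0.28 with Cldn5.

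Next, the members were compared between the 34 mesenchyme-marker cells and the 50 other cells, a split by 11 genes that hold no member. Cldn5, Pecam1, F11r, Esam and Cdh5 were lower in the mesenchyme-marker cells and Jam3 was higher, each by over 1 on the log2(TPM + 1) scale. Of the 10 members, 5 were lower by over 1, beside 6.40% of the 12318 genes detected in at least 5 cells, and 1 was higher, beside 3.95%. The median difference was -1.02 over the 10 members and -0.05 over the 12318 genes. The 34 cells include cells 13, 23, 65 and 72, in which 1, 1, 0 and 7 of the 13 pan-endothelial genes reached TPM 10. In these cells Cdh5 was at 3.13 TPM or less and Esam at 1.35 TPM or less, which lowers both means. The count of 5 thus leans in part on them, and the split was not repeated without them. Both sets are cells of 1 sample, so no test was made.

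Cldn5 had the largest difference on this scale. With a pseudocount of 10 the largest was that of Pecam1 (-1.64, with -1.58 for Cldn5). With markers counted at TPM 100 it was that of Esam (-3.49, with -3.38 for Cldn5). Only 11 cells met that last rule, and the rest of the 34 then counted among the other cells. Cldn5 was detected in 20 of 34 mesenchyme-marker cells and in 46 of 50 other cells, with lowest, median and highest levels of 0, 6.76 and 290 TPM against 0, 84.3 and 445 TPM. The difference of the mean log2(TPM + 1) was -2.76, and it was negative in 7 of 7 index sets. Pecam1 had levels of 0, 79.1 and 443 TPM in mesenchyme-marker cells and 14.5, 204 and 820 TPM in other cells, a difference of -2.16, negative in 7 of 7 sets. F11r had medians of 69.3 TPM and 169 TPM in these groups, a difference of -1.74, again negative in 7 of 7 sets. The ranges of both groups overlapped for each of these genes.

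Esam had a median of 75.9 TPM in mesenchyme-marker cells and 165 TPM in other cells, a difference of -1.34 that was negative in 6 of 7 sets. Cdh5 had medians of 118 TPM and 164 TPM in the same groups, a difference of -1.06 that was negative in 5 of 7 sets. Tjp1 had medians of 32.8 TPM and 50.9 TPM, a difference of -0.99, just short of 1. Cdh5 and Tjp1 had the smallest differences of the 6 widely detected genes under this marker rule. With markers counted at TPM 100, which only 11 cells met, they were -1.44 and -2.35, and F11r had the smallest, -1.03. Cdh5 and Tjp1 were each detected in 32 of 34 mesenchyme-marker cells and in 50 of 50 other cells.

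Jam3 was detected in 26 of 34 mesenchyme-marker cells and in 26 of 50 other cells. Its lowest, median and highest levels were 0, 32.8 and 221 TPM in mesenchyme-marker cells, against 0, 1.82 and 299 TPM in other cells. The difference was 1.45, positive in 6 of 7 sets, and 0.75 with a pseudocount of 10. Cdh2 had medians of 8.44 TPM and 3.08 TPM in these groups, with a difference of 0.77 that was positive in 5 of 7 sets, and detection was alike, with 23 of 34 and 34 of 50 cells. Jam2 and Ocln differed by 0.06 and -0.02.

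Endothelial genes beyond the junction set were lower in the mesenchyme-marker cells too. All 13 pan-endothelial genes outside the members were lower in them, with a median difference of -1.45. Of these 13, 12 were lower by over 1, beside 6.40% of the 12318 genes. The summed level of the 13 genes had a median of 2294 TPM (4.54 to 5255 TPM) in mesenchyme-marker cells and 4308 TPM (9.32 to 10791 TPM) in other cells. The 11 mesenchyme genes summed to a median of 504.25 TPM (80.9 to 2852 TPM) in mesenchyme-marker cells and 2.70 TPM (0.04 to 68.8 TPM) in other cells. Of these 11 genes, 10 were higher by over 1 and 0 were undetected in either group. The same 11 genes made the split, so their higher level follows from the rule and is no finding. Detected genes had medians of 6862 and 7032. Whether the mesenchyme transcripts come from the same cell as the endothelial ones was not tested.

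**Figure D5:**
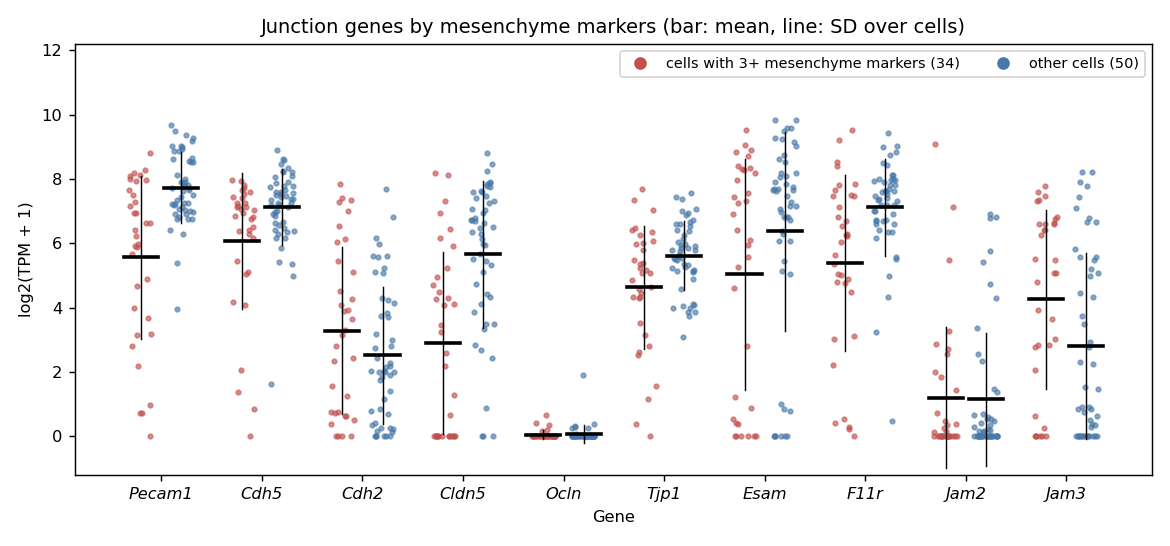
Levels of each junction gene in the 34 mesenchyme-marker cells (left of each pair) and the 50 other cells, as log2(TPM + 1); points are cells, bars means and lines SDs over cells. Cldn5 has the widest gap on this scale, -2.76, and Jam3 is higher in the mesenchyme-marker cells by 1.45.

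Other junction lists were set beside the same split, in which 6.40% of the 12318 genes were lower by over 1 and 3.95% higher. Of 14 adherens junction genes detected in at least 5 cells, 3 were lower by over 1 in the mesenchyme-marker cells: Jup, which encodes plakoglobin (-1.31), Ptprb (-1.17) and the nectin gene Pvrl2 (-1.03). Of 6 border genes, 3 were lower: Icam2 (-1.57), Mcam (-1.35) and Icam1 (-1.12). Of 13 plaque and tricellular genes, 0 were lower by over 1 and 1 was higher, the polarity gene Pard6g (1.87). These plaque counts lie near the shares over all genes. Of the 11 transcription factors, 3 were lower: Sox18 (-2.08), Ets1 (-1.13) and Fli1 (-1.05). Jup, Pvrl2 and Pard6g were named after their values were seen.

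Cells were also split by vessel genes that hold no member. Prox1, the regulator of lymphatic identity, was at TPM 10 or more in 36 cells. Against the 48 other cells these had higher F11r (difference 1.17, medians 143 TPM and 129 TPM) and higher Cldn5 (1.16, medians 37.8 TPM and 29.7 TPM). Esam was lower in the Prox1 cells (-1.11, medians 97.0 TPM and 193 TPM). Thus 2 of the 10 members were higher by over 1, beside 4.66% of all genes, and 1 was lower, beside 1.16%. The ranges overlapped for all 3. With a pseudocount of 10 the differences were 0.71 for F11r, 0.51 for Cldn5 and -0.85 for Esam, all under 1 in size.

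Mesenchyme markers differed along this split: 12 of the 36 Prox1 cells were mesenchyme-marker cells, against 22 of the 48 other cells. The 11 mesenchyme genes summed to a median of 4.82 TPM in Prox1 cells and 45.7 TPM in other cells. Without mesenchyme-marker cells the differences were 0.46 for F11r and -0.10 for Cldn5, while that of Esam was -2.18. Within index sets, F11r was higher in 6 of 7 and Cldn5 in 5 of 7, and Esam was lower in 4 of 7.

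The artery-associated genes Gja4, Gja5 and Dll4 gave a set of 30 cells with at least 1 of them at TPM 10 or more, against 54 other cells. Esam was higher in these 30 cells (difference 1.22, medians 174 TPM and 116 TPM), beside 4.43% of all genes past 1, and 0 members were lower by over 1, beside 0.609%. Cdh5 differed by 0.97, with medians of 157 TPM and 127 TPM, and was higher in 7 of 7 index sets. It was detected in 30 of 30 artery-gene cells, at 70.3 TPM or more, and in 52 of 54 other cells. Without mesenchyme-marker cells the differences were -0.31 for Esam and 0.60 for Cdh5, so that of Esam changed direction. With a pseudocount of 10 the difference of Esam over all cells was 0.76. The 13 other pan-endothelial genes were higher in the artery-gene cells in 12 cases, with a median difference of 0.92, so Esam and Cdh5 differed about as much as endothelial genes at large. Of the 30 artery-gene cells 12 were mesenchyme-marker cells, and of the 54 other cells 22.

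Across the 7 index sets of 12 cells, Cdh5 and Tjp1 were each detected in 11 or 12 cells, Pecam1 in 10 to 12 and F11r in 9 to 12. Jam2 varied most, from 0 to 7 cells. Set medians ran from 112 to 203 TPM for Cdh5 and from 13.1 to 115 TPM for Cldn5.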

How the data were processed

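RNA was measured in 84 single cells of 1 sorted population. The authors deposited 1 table of TPM values per gene and cell. Per the submitters' processing notes, CASAVA 1.8.2, RSEM 1.2.3 and Bowtie 0.12.9 were used with the genome build mm10; the sources used here give neither their settings nor the annotation of genes. TPM divides out depth, so the precision of single values is unknown. Columns were matched to cells by name.

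Detection, quantiles, Spearman rho, Pearson r and differences of mean log2(TPM + 1) were computed with Python 3.11.15, numpy 2.4.6, pandas 2.3.3 and scipy 1.17.1; the log scale understates differences of low genes. The scripts were tested on simulated data. No cell was left out and no doublet caller was run. Coordinates and promoter windows come from RefSeq on GRCm38.p6, the assembly that mm10 names; 18956 of 20308 symbols matched, with all 10 members among them. Second-index sets, from the labels, served as technical groupings.

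The members and gene lists were chosen with earlier results of these data known. Genes named are the 10 members, the 4 genes of each other junction list detected in the most cells (with ties), the 3 genes most like each member detected in at least 20 cells, and all listed transcription factors; any other was named after its values were seen. For 1 gene under this rule, values are not reported here. Alternatives varied the detection level, the cells used, the pseudocount, the scaling and the marker rule.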

Additional observations from a re-analysis of the deposited data

How the results depend on the processing

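Of 84 alternative values, 54 stayed within the counting error over cells, the spread or the 1.5-fold range of the reported value, 30 moved and 0 reversed. Counted above TPM 0, detection was 98.8% for Pecam1 and F11r, 51.2% for Jam2, 76.2% for Jam3, 15.5% for Ocln and 88.1% for Cdh2, with a median of 8 members per cell. Counted at TPM 10, it was 67.9% for Cldn5, 11.9% for Jam2, 48.8% for Jam3, 89.3% for Tjp1, 0% for Ocln and 38.1% for Cdh2, with a median of 6 members per cell. Without mesenchyme-marker cells it was 100% for Pecam1, Cdh5 and Tjp1, 92% for Cldn5 and 98% for F11r. In the 77 cells with at least 6000 detected genes it was 98.7% for Pecam1.

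Without cells holding 3 markers of any other type, an alternative chosen after seeing the data, detection was 100% for Pecam1, Cdh5, F11r and Tjp1, 93.3% for Cldn5 and 46.7% for Jam3, and Cdh2 exceeded Cdh5 in 0% of cells. With a pseudocount of 10, 3 members were lower by over 1 log2 unit in mesenchyme-marker cells; the other alternatives gave 5 or 6. The median Pearson r of the 15 pairs of widely detected members was 0.46 with a pseudocount of 1 and 0.50 with 0.1. No paired analysis was possible because all cells form 1 group and no comparison was tested.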
